A study of Mus musculus with 6 samples.

Results

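The genes of oxidative phosphorylation were followed through immune cells sorted from mouse breast tumours that had been grown either in the brain or in the mammary fat pad. Members were taken by symbol: the Nduf genes of complex I, including its assembly factors, the Sdh genes of complex II, the Uqcr genes of complex III, the Cox4 to Cox8 genes of complex IV, the Atp5 genes of complex V, and the protein-coding genes of the mitochondrial genome (mt-). Of 32285 annotated genes 107 matched, and 103 of these had at least 100 unique molecular identifiers (UMIs, one per captured RNA molecule) over all libraries. The 103 comprised 90 nuclear and 13 mitochondrial genes. Complex I held 45 nuclear members, 8 of them assembly factors, and 7 mt- members. Complex II held 4 nuclear members, complex III 8 nuclear and 1 mt- member, complex IV 16 and 3, and complex V 17 and 2. Ndufa4 carries a complex I name but is known as a subunit of complex IV and was counted there. At the edge of the threshold, Cox4i2 had 558 UMIs, Cox7a1 712 and Cox6b2 892, all kept, while Ndufa4l2 had 39 and Cox7b2, Cox8b and Cox8c had 0.

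The respiratory chain passes electrons from NADH through complex I, or from succinate through complex II, to ubiquinone, then through complex III and cytochrome c to oxygen at complex IV. Complexes I, III and IV pump protons across the inner mitochondrial membrane, and complex V, the ATP synthase, uses their return to make ATP. Most subunits are encoded in the nucleus and imported, whereas a small set of core subunits is encoded in the mitochondrial DNA, so each complex except complex II is built from the products of both genomes. Activated and dividing lymphocytes are known for raising mitochondrial biogenesis together with glycolysis, and regulatory T cells for a comparatively strong reliance on oxidative phosphorylation.

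Both groups were female C57BL/6J mice of 10-12 weeks. They received cells of a breast cancer line with brain metastatic behaviour by injection into the brain (BrM, 3 libraries) or into the mammary fat pad (MFP, 3 libraries), so site of growth was the only labelled difference. Live nucleated CD45+ cells (DAPI- RedDot-1+) were sorted from the dissociated tumours and profiled with droplet-based 3′ single-cell RNA sequencing. Nothing in the labels ties a library to an animal of its own, and each p-value therefore reflects library-to-library spread that could be technical. Libraries held 7083 to 8986 barcodes and 50692794 to 70944735 UMIs.

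The cell types were rebuilt with marker gates. After filtering, 43728 cells remained, of which 30888 fell into 1 of 14 classes, 6275 were other T cells, 5904 passed no gate, 357 met several gates and 304 carried epithelial markers. The largest classes were NK-like (8487 cells), macrophage-like (6343) and CD8 T-like (5201). CD4 conventional T-like cells numbered 3449 and Treg-like cells, gated on Foxp3, 627. In every class the median cell carried its own gate's markers, as the gates require. Examples are 15 UMIs of the CD3 genes and 2 of Foxp3 in Treg-like cells, and 13 UMIs of B-cell markers in B-like cells. These values describe the classes and do not test their identity. The plasmacytoid DC-like class also had a median of 6 UMIs of the CD8 genes and 45 of the monocyte marker list. The libraries fell into 2 kinds that cut across the sites: in BrM 1, MFP 1 and MFP 2, 96.0% to 98.6% of classed cells were lymphoid, against 26.0% to 39.0% in BrM 2, BrM 3 and MFP 3, which also had the higher UMI totals. All values below are therefore within a class, and the values within each kind are given where they change a result. Levels are CPM, the UMIs of a gene in every 1000000 UMIs of the class in that library, or shares of those UMIs. They are relative to the other RNA of the same cells and do not give RNA per cell.

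Nuclear and mitochondrial members took different shares in different classes. In B-like cells the 13 mt- genes took 4.44% to 6.22% of all UMIs in the 6 libraries and the 90 nuclear genes 1.23% to 1.60%, so that nuclear transcripts stood at a log2 ratio of -1.55 to -2.31 to the mitochondrial ones. Treg-like cells lay at the other end of the lymphocytes, with 2.72% to 3.17% mitochondrial and 1.96% to 2.82% nuclear, a log2 ratio of -0.69 to 0.03. The B-like and Treg-like ranges did not overlap in either share or in the ratio. NK-like cells (mitochondrial 2.78% to 3.27%) and CD8 T-like cells (3.12% to 3.87%) overlapped in both shares. Among myeloid classes, neutrophil-like cells, measured in 3 libraries, had little of either genome: 0.667% to 0.932% mitochondrial and 0.817% to 1.12% nuclear, with a log2 ratio of -0.06 to 0.34. Plasmacytoid DC-like cells had 4.25% to 4.84% mitochondrial and microglia-like cells, present in BrM 2 and BrM 3 at 20 cells or more, 3.70% and 3.81%.

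**Figure D1:**
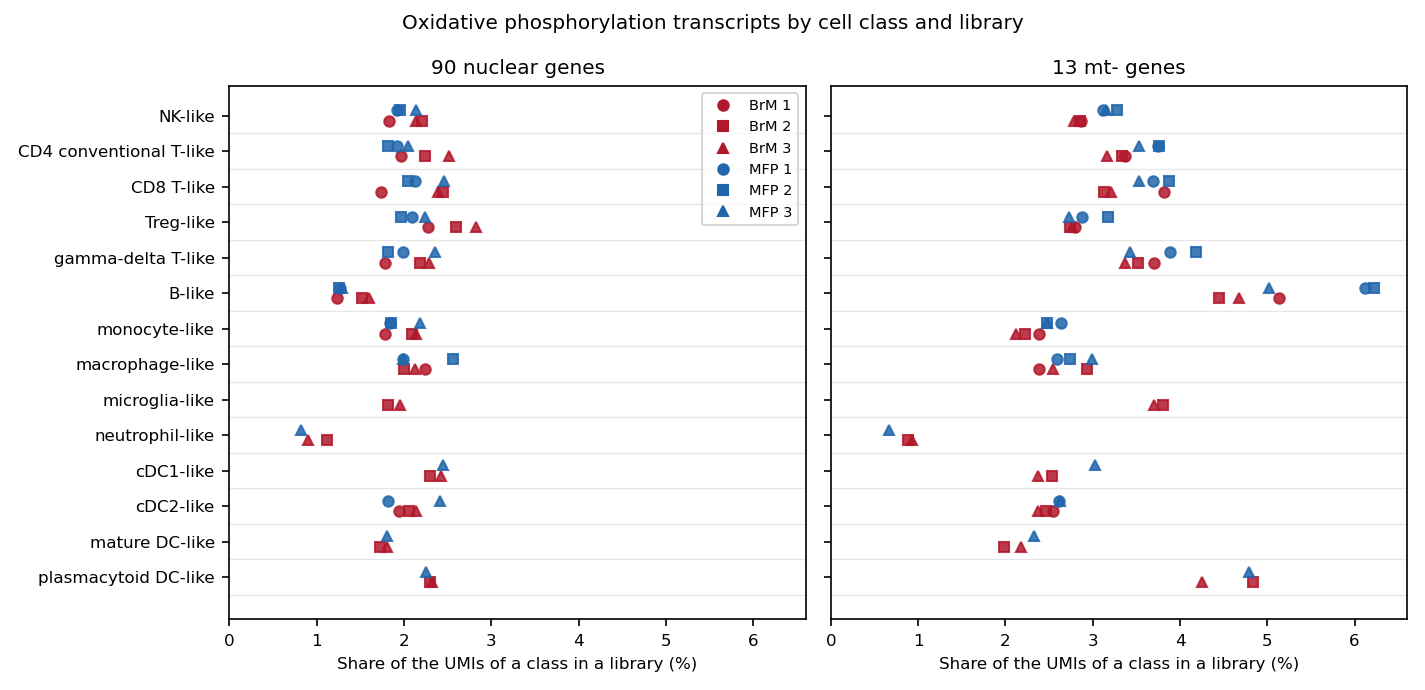
Share of the UMIs of a class (percent, horizontal axes) taken by the 90 nuclear members (left) and the 13 mt- members (right), 1 point for each library with at least 20 cells of the class, BrM in red and MFP in blue. B-like libraries lie at 4.44% to 6.22% mitochondrial and neutrophil-like libraries below 1% mitochondrial.

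Within the lymphocytes, the most abundant nuclear members by CPM were Ndufa13 and Ndufb11 in complex I, Sdhb and Sdhd in complex II, Uqcrh and Uqcrb in complex III, Cox4i1 and Cox8a in complex IV, and Atp5e and Atp5h in complex V. Because the 3′ protocol counts molecules but captures genes unequally, their order is a description of the counts. Cox4i1, an early assembling core-facing subunit of cytochrome c oxidase, was at 895, 870 and 818 CPM in the BrM and 905, 909 and 861 in the MFP libraries of NK-like cells. In Treg-like cells it was at 942, 863 and 914 against 878, 805 and 832. The sites overlapped in both classes, with log2 fold changes of -0.01 (SE 0.0896) and 0.21 (SE 0.146). Ndufa13, a membrane-arm subunit of complex I, was likewise at 471, 484 and 510 CPM in BrM and 507, 476 and 610 in MFP Treg-like cells, a log2 fold change of -0.02 (SE 0.16). Sdhd, which also belongs to these 10, did differ in Treg-like cells, as given with complex II.

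The comparison of BrM with MFP was made in each class with edgeR's quasi-likelihood test on summed counts, with Benjamini-Hochberg adjustment over all genes tested and a threshold of 0.05. In Treg-like cells 14 of 96 members tested rose in BrM tumours and 0 fell, against a background of 5.49% of 6370 genes called higher and 2.76% called lower. All 14 were nuclear. None of them was called once cycling cells were left out, or when BrM 2, BrM 3, MFP 2 or MFP 3 was left out, as given below. In the fit with all libraries 43 members, all nuclear, had an unadjusted p under 0.05 (26.9% of all genes did). The median log2 fold change was 0.43 over the 83 nuclear members and 0.08 over the 13 mt- members, against -0.01 over all genes tested. Of the nuclear members 79 were positive and 4 negative (49.1% of all genes were positive). In 40 nuclear members every BrM library lay above every MFP library (14.4% of genes). mt-Co1 had the opposite order, at 5573, 4581 and 4306 CPM in BrM and 6057, 6311 and 5640 in MFP, with no call by edgeR (adjusted p = 0.317, log2 fold change -0.22).

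By share of UMIs, nuclear members took 2.27%, 2.59% and 2.82% in the BrM libraries of Treg-like cells and 2.09%, 1.96% and 2.24% in the MFP libraries, so the sites did not overlap, narrowly. The mean was 2.56% ± 0.276 (SD, n = 3) in BrM and 2.10% ± 0.139 (SD, n = 3) in MFP. The mitochondrial share overlapped, at 2.77% ± 0.028 (SD, n = 3) and 2.92% ± 0.227 (SD, n = 3). Its difference has the opposite sign to the mt- median of the fit, which rescales the libraries by the trimmed mean of M-values (TMM), so no direction is drawn for the mt- members. Among the nuclear complexes, complex II (0.0522% against 0.0358%), IV (0.706% against 0.599%) and V (0.843% against 0.673%) had every BrM library above every MFP library, and complexes I and III overlapped. The median log2 fold changes of the nuclear members were 0.44 in complex I, 0.71 in II, 0.49 in III, 0.33 in IV and 0.39 in V. The log2 ratio of nuclear to mitochondrial transcripts, which does not depend on library scaling, was -0.12 ± 0.168 (SD, n = 3) in BrM and -0.48 ± 0.206 (SD, n = 3) in MFP, with overlapping libraries. The difference of 0.36 was 0.34 with cycling cells left out.

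**Figure D2:**
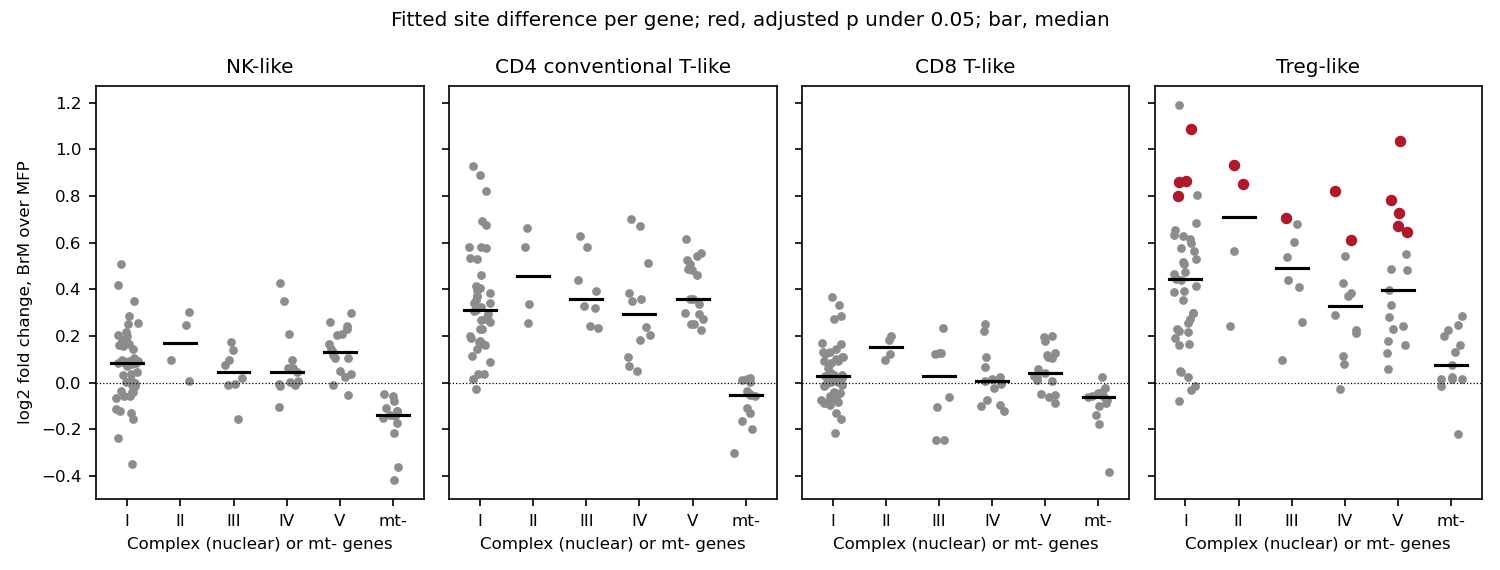
Log2 fold change, BrM over MFP, (vertical axis), of every tested member in 4 lymphocyte classes, with the nuclear members by complex and the mt- members last; bars are medians and red points passed the threshold. The medians over all nuclear members are 0.43 in Treg-like, 0.34 in CD4 conventional T-like, 0.08 in NK-like and 0.03 in CD8 T-like cells.

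In complex I, 4 of 42 nuclear members rose in Treg-like cells. Ndufab1, the mitochondrial acyl carrier protein that is also a complex I subunit, was at 170, 208 and 390 CPM in BrM and 131, 128 and 115 in MFP. Its log2 fold change of 1.09 (SE 0.278, edgeR adjusted p = 0.0308) rested on separate ranges with BrM 3 well above the other libraries. Ndufc2, a membrane-arm subunit, was at 198, 285 and 351 against 152, 149 and 187 (log2 fold change 0.86, SE 0.225, edgeR adjusted p = 0.0334), where BrM 1 and MFP 3 lay close together. Ndufv1, the flavoprotein that accepts electrons from NADH, was at 74.0, 77.2 and 83.1 against 48.2, 39.1 and 56.2, a log2 fold change of 0.80 (SE 0.231, edgeR adjusted p = 0.0434), without overlap. Ndufb6 was at 124, 197 and 217 against 106, 81.7 and 126, and was the 1 called member whose sites overlapped, because MFP 3 exceeded BrM 1.

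Complex II had 2 of its 4 genes called, both of the membrane anchor that binds ubiquinone. Sdhd was at 104, 143 and 166 CPM in BrM and 95.2, 65.7 and 74.9 in MFP (log2 fold change 0.85, SE 0.238, edgeR adjusted p = 0.0394). Sdhc was at 53.1, 63.7 and 83.1 against 34.6, 33.7 and 40.1 (0.93, SE 0.266, edgeR adjusted p = 0.0416), from 104, 52 and 36 UMIs in BrM and 28, 19 and 15 in MFP. Both anchors were separate between sites, and the low counts of Sdhc limit its precision. Sdhb, the iron-sulfur subunit, was at 176, 219 and 270 against 165, 151 and 158, also separate, but was not called (log2 fold change 0.57, edgeR adjusted p = 0.0905).

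In complex III the Rieske iron-sulfur protein Uqcrfs1 was called, at 197, 202 and 261 CPM in BrM and 136, 137 and 158 in MFP (log2 fold change 0.71, SE 0.192, edgeR adjusted p = 0.0363). In complex IV, Cox5a was at 579, 811 and 877 against 476, 405 and 495 (0.82, SE 0.189, edgeR adjusted p = 0.024). Ndufa4 was at 552, 664 and 757 against 429, 440 and 519 (0.61, SE 0.176, edgeR adjusted p = 0.0434). In all of these the lowest BrM library, BrM 1, lay above the highest MFP library.

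Complex V had 5 of 17 members called. Atp5g1, one of 3 genes for the membrane c-ring subunit, was at 289, 421 and 478 CPM in BrM and 225, 188 and 201 in MFP, the lowest adjusted p of any member (log2 fold change 1.04, SE 0.212, edgeR adjusted p = 0.0164). The catalytic beta subunit Atp5b was at 611, 742 and 1055 against 529, 499 and 466 (0.78, SE 0.205, edgeR adjusted p = 0.0334). The alpha subunit Atp5a1 and the stalk subunits Atp5o and Atp5f1 had log2 fold changes of 0.73, 0.64 and 0.67. None of the 5 overlapped between sites. The Atp5g genes share sequence with each other and with processed copies in the genome, so the split of reads among them is uncertain.

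**Figure D3:**
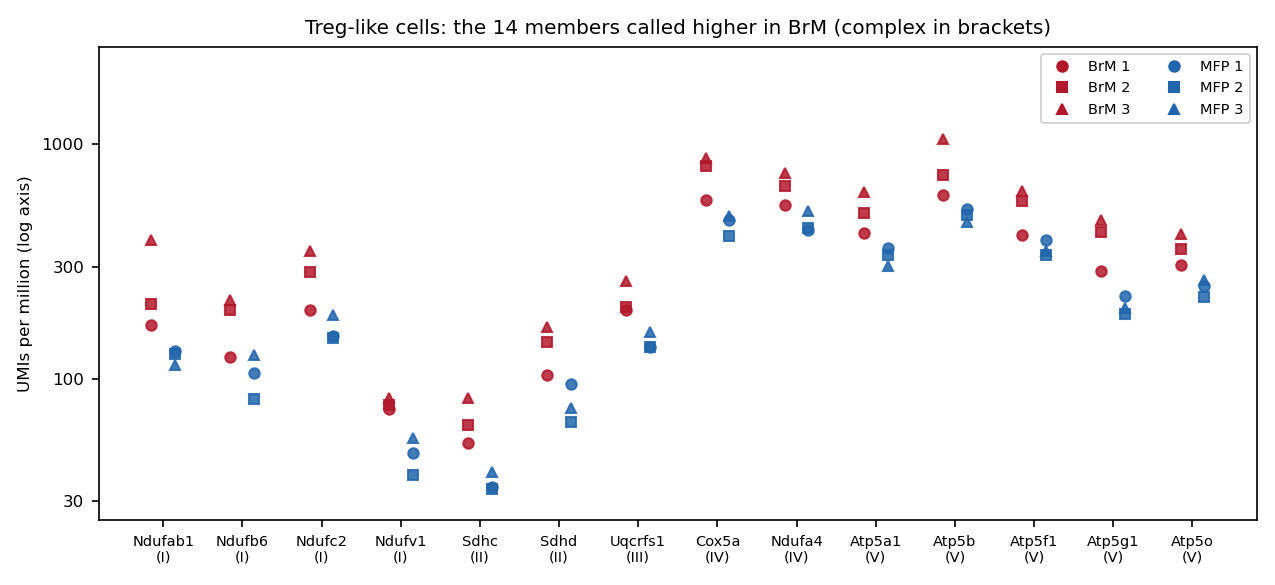
CPM (vertical log axis) in each Treg-like library of the 14 members called higher in BrM, 1 point per library, BrM in red and MFP in blue. In 13 of the 14 every BrM library lies above every MFP library, and Ndufb6 overlaps.

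Of the 14, 11 have a RefSeq promoter entry. The 250 bases before the start site (GRCm38.p6, shown 5′ to 3′ on the gene's strand, all on the minus strand of the chromosome) are printed for 3 of them to show how unlike the promoters of genes that rose together can be, and for Cox6a1, the common form of a subunit described further below, as a promoter rich in matches. Capitals mark matches to CGCNTGCGC (the NRF1-type motif, bound by a known regulator of respiratory genes) or CCGGAAG (ETS-type), on either strand.
Atp5g1, chr11:96075632-96075881: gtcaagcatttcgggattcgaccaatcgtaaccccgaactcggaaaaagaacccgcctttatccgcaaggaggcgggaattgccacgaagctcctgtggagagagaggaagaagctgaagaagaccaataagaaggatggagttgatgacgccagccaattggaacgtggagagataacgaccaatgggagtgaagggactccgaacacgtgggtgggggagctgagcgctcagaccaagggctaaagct
Ndufb6, chr4:40279422-40279671: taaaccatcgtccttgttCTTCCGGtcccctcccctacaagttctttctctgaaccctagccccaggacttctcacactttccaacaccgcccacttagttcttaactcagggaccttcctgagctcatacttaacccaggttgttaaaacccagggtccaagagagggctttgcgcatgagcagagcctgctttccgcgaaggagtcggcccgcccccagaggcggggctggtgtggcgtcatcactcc
Sdhd, chr9:50603850-50604099: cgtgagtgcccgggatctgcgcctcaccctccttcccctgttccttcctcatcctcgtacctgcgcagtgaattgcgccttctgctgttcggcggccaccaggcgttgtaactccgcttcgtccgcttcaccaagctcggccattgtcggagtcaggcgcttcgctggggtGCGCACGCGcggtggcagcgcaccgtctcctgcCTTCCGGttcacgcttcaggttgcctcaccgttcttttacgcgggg
Cox6a1, chr5:115348959-115349208: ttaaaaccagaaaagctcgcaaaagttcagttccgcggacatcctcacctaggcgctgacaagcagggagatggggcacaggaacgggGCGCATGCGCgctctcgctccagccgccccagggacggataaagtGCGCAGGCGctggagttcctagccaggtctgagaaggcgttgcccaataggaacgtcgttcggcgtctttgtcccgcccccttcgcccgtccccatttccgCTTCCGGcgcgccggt
Sdhd holds an NRF1-type match whose first base is at position -79 from the start site and an ETS-type match at -46. Ndufb6 holds an ETS-type match at -232, the Atp5g1 window holds neither motif, and Cox6a1 holds NRF1-type matches at -162 and -161, which overlap, and at -117, and an ETS-type match at -16.

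Promoter entries were found for 73 of the 90 nuclear members, 5 of them with 2 entries. In windows of 300 bases, from 250 before to 50 after the start, the NRF1-type motif was found in 22 of the 73 members (30.1%) and in 7.03% of 27025 genes. The ETS-type motif was found in 19 (26.0%), against 9.93% of genes, and AAGATGGC (YY1-type) in 10 (13.7%), against 3.19%. TATAAA was found in 6 members (8.22%), against 15.7% of genes, and CAGGTG, an E-box, in 15 (20.5%), against 22.6%. Both strands were searched, and none of these motifs is contained in another. Of the 11 called members with an entry, 2 held the NRF1-type and 2 the ETS-type motif, and 0 held the others. These are matches of letters in a window and do not show binding.

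Several other measures moved with the Treg-like result. Cells scored as cycling were 39.9%, 46.2% and 55.6% of BrM and 37.7%, 28.4% and 35.0% of MFP Treg-like cells. Genes of proliferation took 0.670% ± 0.237 (SD, n = 3) of UMIs in BrM and 0.328% ± 0.093 (SD, n = 3) in MFP, and 14 of the 22 listed rose with a median log2 fold change of 1.22. With cycling cells left out, 13 of the 14 members were tested and all 13 stayed positive, at 0.15 to 0.55, with a median of 0.35 in place of 0.81. None of them was called then (edgeR adjusted p 0.364 to 0.872), with 69 of 91 members positive. Foxp3 itself was at 212 to 271 CPM in BrM and 345 to 440 in MFP. The CD3 genes were at 1643 to 2273 against 2485 to 2636, so the CPM of the defining markers was lower in BrM. The gate requires a fixed minimum of their UMIs in each cell, so shallower cells can have a higher CPM from the gate alone. The BrM sums held 1959292, 816576 and 433315 UMIs from 203, 104 and 45 cells. The MFP sums held 808488, 563025 and 373746 UMIs from 106, 109 and 60 cells. Every MFP library thus had fewer UMIs per cell than every BrM library, although the median depths overlapped. No lower expression of the markers is read from their CPM. The CD8 genes were at 0 because the gate excludes cells with a UMI of them. Of the marker lists of other cell types, the erythrocyte genes were at 0 in all libraries. The sites were separate for 2 lists, the microglia pair (0.51 to 2.31 CPM in BrM, 0 in MFP) and the cDC1 pair (1.53 to 2.45, and 0). In Treg-like cells 3 UMIs equal 1.53 to 6.92 CPM in the BrM and 3.71 to 8.03 CPM in the MFP libraries. Both separations therefore rest on a few UMIs, and a 0 in MFP does not show absence. The part of any of these in the result was not tested, beyond the fit without cycling cells.

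The calls also depended on single libraries. Leaving out BrM 2, BrM 3, MFP 2 or MFP 3 left 0 members called, with 0.141% to 0.515% of all genes called in either direction. Leaving out MFP 1 left 1 (2.71% of genes), and leaving out BrM 1 gave 39 of 96 (23.0% of genes), with a median of the 14 between 0.67 and 0.98. With the kind of library as a term in the fit 2 members were called (3.41% of genes), and the median of the 14 was 0.66. Among the 3 libraries of higher UMI total the median of the 14 was 0.97 and 11 were called (15.1% of genes). Among the 3 of lower total it was 0.41 and 0 were called (1.06% of genes). The first of these has a lone MFP and the second a lone BrM library, assumed to vary like the other group. With gates raised after the data were seen the median was 0.80 and 0 were called (edgeR adjusted p 0.0535 to 0.164). Under every one of these settings all of the tested 14 kept a positive sign. The 14 were chosen as higher in BrM in the fit with all libraries, and these fits reuse those libraries. A kept sign is therefore no separate support.

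Genes that work with the respiratory chain were counted in the same Treg-like comparison, in which 5.49% of all genes were called higher. Of 73 mitochondrial ribosome genes, which translate the mt- messages, 10 rose (median 0.59, 71 positive), and they took 0.596% of UMIs in BrM against 0.421% in MFP with no overlap. Among the tricarboxylic acid cycle genes 3 of 19 rose: Fh1 (fumarase, log2 fold change 1.65), Suclg1 (0.73) and Mdh2 (malate dehydrogenase, 0.72). Among carriers and channels 3 of 11 rose, the ADP/ATP carriers Slc25a4 (1.13) and Slc25a5 (0.74) and the outer membrane channel Vdac3 (0.85). Cycs, which is cytochrome c (0.75), and the complex III assembly factor Uqcc2 (0.76) were the 2 called of 30 further assembly genes, and Tsfm, a mitochondrial translation factor, was the 1 of 15 genes of mitochondrial DNA expression (1.12). Both of these last counts are near the share over all genes and are not read as a result about their lists. The transcriptional regulators of the pathway had 0 of 7 called with a median of -0.08. Cytosolic ribosome genes, outside the pathway, had 27 of 73 called higher (median 0.38), and dissociation stress genes 2 higher and 7 lower of 18. In all of the lists but the regulators and stress genes the median was therefore above that of all genes.

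CD4 conventional T-like cells showed nuclear values in the same direction, with no member called. This class is gated on Cd4 with no Foxp3 UMI, so it may hold Treg cells whose Foxp3 RNA was not captured. Their share was not measured. Of 99 members tested, 0 passed the threshold (0.0% of 9745 genes did), 40 had an unadjusted p under 0.05 (18.6% of genes did), and DESeq2 called 3. The median log2 fold change was 0.34 over 86 nuclear members, 85 of them positive (52.3% of all genes were), and -0.05 over the mt- members. In 26 nuclear members every BrM library lay above every MFP library (8.72% of genes), and in 8 mt- members every MFP library lay above (17.6% of genes).

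Ndufc2 was at 142, 198 and 313 CPM in BrM and 130, 119 and 133 in MFP CD4 conventional T-like cells, a log2 fold change of 0.89 (edgeR adjusted p = 0.14). Cox5a was at 438, 590 and 737 against 417, 375 and 383 (0.70), and Uqcrfs1 at 140, 162 and 180 against 119, 113 and 103 (0.63, edgeR adjusted p = 0.139, the lowest of any member here). In all of these BrM 1 was close to the MFP libraries and BrM 3 was highest. Leaving out BrM 1 brought 39 of 99 members past the threshold, all higher, where 18.4% of all genes were called in either direction, against 0 when any other library was left out. Within the libraries of higher UMI total 17 were called higher (8.11% of genes were called), and within those of lower total 3 (10.7% of genes). The members' shares followed the same order, with the nuclear share at 1.97%, 2.24% and 2.52% in BrM and 1.92%, 1.81% and 2.05% in MFP, which overlapped. The mitochondrial share was 3.37%, 3.34% and 3.16% in BrM and 3.75%, 3.76% and 3.53% in MFP, so every MFP library was higher. In the fit, which rescales the libraries by TMM, 4 of 13 mt- members were positive and 9 negative, with a median of -0.05. The mt- difference therefore depends on the scaling, and no direction is drawn for the mt- members.

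Taking both genomes together, the log2 ratio of nuclear to mitochondrial transcripts in CD4 conventional T-like cells was -0.56 ± 0.224 (SD, n = 3) in BrM and -0.94 ± 0.137 (SD, n = 3) in MFP, with every BrM library above every MFP library. The single values were -0.78, -0.57 and -0.33 in BrM and -0.97, -1.05 and -0.78 in MFP, so that BrM 1 and MFP 3 were almost equal. Within the complexes, the ratio separated the sites for complexes I and III. Proliferation genes took 0.395% of UMIs in BrM and 0.174% in MFP, and dissociation stress genes 0.785% and 0.998%, both without overlap, and their part in the ratio was not tested.

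In NK-like cells the mt- members were lower in BrM by a small and regular amount, which no single gene's test called. The mitochondrial share was 2.86%, 2.85% and 2.78% in BrM and 3.12%, 3.27% and 3.15% in MFP, with every MFP library above every BrM library, in total and for the mt- members of each of complexes I, III, IV and V. The means were 2.83% ± 0.045 (SD, n = 3) and 3.18% ± 0.082 (SD, n = 3). All 13 mt- members had negative log2 fold changes (median -0.14, while 50.0% of all genes were positive), and 10 had every MFP library above every BrM library (10.4% of genes did). The 13 genes share the mitochondrial genome and the same libraries. Such counts are therefore not independent observations of the site difference, in this class or the others. Proliferation genes had no call in the same comparison, but all 22 were positive, with a median of 0.93, and their share of UMIs overlapped (0.207% ± 0.0873 in BrM and 0.141% ± 0.0243 in MFP, SD, n = 3). Of 78 mitochondrial ribosome genes 67 were positive, with a median of 0.20 and 0 called. Their part in the mt- difference was not tested. The nuclear share overlapped, at 2.06% ± 0.2 (SD, n = 3) and 2.00% ± 0.12 (SD, n = 3).

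Of 100 members tested in NK-like cells, 0 were called by edgeR (0.0% of 10581 genes were) and 0 by DESeq2, and 2 had an unadjusted p under 0.05 (8.45% of genes did). The 2 were mt-Nd3 and mt-Atp8. mt-Nd3, a small core subunit of complex I, was at 337, 363 and 346 CPM in BrM and 419, 436 and 592 in MFP (log2 fold change -0.42, SE 0.135, edgeR adjusted p = 0.562). mt-Atp8, a small membrane subunit of complex V, was at 60.5, 46.1 and 51.4 against 70.2, 72.6 and 68.4 (-0.36, SE 0.122, edgeR adjusted p = 0.562). Both were separate between sites, with MFP 3 the highest library for mt-Nd3. mt-Co1, the catalytic core of complex IV, was at 5368, 4990 and 4859 against 5615, 5899 and 5768 (-0.14), a smaller difference without overlap. mt-Atp8 overlaps mt-Atp6, and mt-Nd4l overlaps mt-Nd4, in the mitochondrial genome, so reads of each pair may be assigned to either. Leaving out BrM 1 gave 8 of 100 members called, 7 higher and 1 lower, near the 6.86% of all genes called in that fit. Within the libraries of lower UMI total only 12 of 102 members were positive and 2 were called lower (4.49% of genes were called), whereas within those of higher total 64 of 100 were positive, so no direction is drawn for the nuclear members of NK-like cells.

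mt-Nd3 had the same pattern in several other classes. In CD8 T-like cells it was at 401, 392 and 401 CPM in BrM and 456, 499 and 665 in MFP (log2 fold change -0.38, edgeR adjusted p = 0.857). In B-like cells it was at 564, 514 and 479 against 833, 863 and 970 (-0.74, SE 0.163, edgeR adjusted p = 0.383), and in gamma-delta T-like cells at 390, 452 and 364 against 523, 525 and 615 (-0.48, edgeR adjusted p = 0.208). Every MFP library was above every BrM library in these classes, in CD4 conventional T-like and in monocyte-like cells, and no test called the gene. In Treg-like cells mt-Nd3 overlapped, at 281, 337 and 406 against 286, 375 and 428 (0.01). These classes come from the same 6 libraries and are not independent of each other.

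The other classes had few or no members called. In CD8 T-like cells 0 of 100 passed (0.0% of 10580 genes did), 0 by DESeq2, with 1 unadjusted p under 0.05, that of mt-Nd3 (5.33% of genes had one). The nuclear median was 0.03 and the mt- median -0.06. Nuclear and mitochondrial members summed to 5.58% ± 0.025 (SD, n = 3) of UMIs in BrM and 5.91% ± 0.084 (SD, n = 3) in MFP CD8 T-like cells, without overlap, although neither share alone separated the sites. BrM 1 stood apart there, with the lowest nuclear (1.74%) and the highest mitochondrial share (3.82%) of the BrM libraries. Within the libraries of lower UMI total, where it is the lone BrM library, 13 of 100 members were called lower (5.23% of genes were called). In B-like cells 0 of 94 passed (0.0% of 4939 genes), 0 by DESeq2, with 8 unadjusted p under 0.05 (7.55% of genes). All 13 mt- members were negative, with a median of -0.30 (50.5% of all genes were positive), and without BrM 1 11 of 92 members were called, 6 higher and 5 lower, near the 10.1% of genes called there. In gamma-delta T-like cells 0 of 99 passed (0.0711% of 8434 genes), with 3 unadjusted p under 0.05 (12.7% of genes) and 0 by DESeq2, and 10 were called lower within the libraries of lower UMI total, near the 9.37% of genes called there. In monocyte-like cells 0 of 97 passed (0.944% of 7101 genes), with 6 unadjusted p under 0.05 (13.2% of genes) and 0 by DESeq2, and 7 of 13 mt- members had every MFP library above (11.5% of genes). In cDC2-like cells, compared over 3 BrM and 2 MFP libraries, 0 of 96 passed (1.07% of 6150 genes), with 6 unadjusted p under 0.05 (12.9% of genes) and 0 by DESeq2.

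In macrophage-like cells 1 of 103 members was called, Cox6a2, higher in BrM (1.17% of 11168 genes were called higher). It was at 6.50, 5.29 and 7.35 CPM in BrM and 0, 6.92 and 2.33 in MFP, from 3, 124 and 149 UMIs and 0, 1 and 76 UMIs (log2 fold change 1.59, SE 0.313, edgeR adjusted p = 0.0074). The sites overlapped through MFP 2, whose value is 1 UMI in 28 cells, and DESeq2 did not call the gene. The MFP value rests mainly on MFP 3, the library with 2243 of the MFP macrophage-like cells. Ndufa4 was at 243, 241 and 242 CPM in BrM and 167, 138 and 178 in MFP, separate but not called (0.62, edgeR adjusted p = 0.158). Leaving out BrM 2, BrM 3 or MFP 3, the libraries that hold most of the class, left 0 of 93 members tested called. In these fits 0.0% of all genes were called and fewer members were tested, so they say nothing about Cox6a2 alone. Within those 3 libraries alone, with MFP 3 as the lone MFP library, 33 of 103 members and 2879 of 13057 genes were called. Markers of other cells moved with Cox6a2 in this class. The plasmacytoid DC markers summed to at least 9.22 CPM in each BrM library and at most 4.97 in each MFP library, and the mature DC markers to 13.6 to 30.4 and 0 to 4.42, both without overlap. The microglia pair overlapped, at 102 to 147 and 48.4 to 132 CPM. Of the 282 macrophage-like cells with a Cox6a2 UMI 14.2% carried a plasmacytoid DC marker UMI and 70.2% a microglia UMI, against 6.25% and 59.0% of the other cells, at median depths of 12332.5 and 11331 UMIs. Both microglia-like and plasmacytoid DC-like cells had higher Cox6a2, as given below, and microglia-like cells were found at 20 or more cells only in BrM libraries. Their part in the difference was not tested.

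Comparisons between classes of the same libraries, with the library as a block, gave larger differences. NK-like cells had lower levels of most members than CD8 T-like cells: 73 of 102 were called lower (27.6% of 11533 genes were) and 1 higher (24.7% were). The lower calls covered 63 of 89 nuclear and 10 of 13 mt- members, and the median log2 difference was -0.27, against -0.01 over all genes. Ndufaf6, a complex I assembly factor, was at 4.52 ± 0.858 CPM (SD, n = 6) in NK-like and 8.98 ± 2.18 (SD, n = 6) in CD8 T-like cells, lower in 6 of 6 libraries (log2 difference -1.03). Ndufab1 was at 120 ± 39.1 against 162 ± 49.6 (SD, n = 6; -0.53) and Uqcr10, a small subunit of complex III, at 173 ± 32.5 against 233 ± 54.3 (SD, n = 6; -0.51). Cox4i1 (0.02) and Cox8a (-0.07) were not called. All 22 proliferation genes and 73 of 74 cytosolic ribosome genes were lower in NK-like cells too. Dissociation stress genes were called higher in NK-like cells for 13 of 18 and lower for 3. Of 13 transcriptional regulators of the pathway 3 were called higher and 3 lower, with a median of 0.01. Ppargc1a, a coactivator of mitochondrial biogenesis, had a log2 difference of 5.16 and Tfeb of 1.20, while Hif1a (-0.77) and the coactivator Ppargc1b (-0.87) were lower.

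Treg-like and CD4 conventional T-like cells differed in opposite directions for the genomes. Of 86 nuclear members 26 were higher in Treg-like cells and 2 lower, and of 13 mt- members 0 were higher and 11 lower, against 15.0% of 8887 genes called higher and 13.5% lower. The medians were 0.14 and -0.33, against -0.01 over all genes. Uqcr11, a complex III subunit, was at 156 ± 30.7 CPM in Treg-like and 98.0 ± 17.0 in CD4 conventional T-like cells (SD, n = 6; log2 difference 0.63), and Sdhb at 190 ± 46.2 against 124 ± 33.4 (SD, n = 6; 0.58), each higher in 6 of 6 libraries. mt-Nd4 was at 1265 ± 109 against 1662 ± 122 (SD, n = 6; -0.43) and mt-Nd2 lower by the same measure at -0.44, each in 6 of 6 libraries. The 2 nuclear members that were lower were Ndufaf4 (-0.59), a complex I assembly factor, and Cox7a2l (-0.40), counted here with complex IV. All 22 proliferation genes were higher in Treg-like cells, 56 of 73 cytosolic ribosome genes were lower (median -0.27) and 10 of 18 dissociation stress genes were lower (median -0.33). Their part in the members' differences was not tested.

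B-like cells showed the widest gap between the genomes. Against CD4 conventional T-like cells all 13 mt- members were called higher (21.6% of 9083 genes were) with a median of 0.76, and 63 of 85 nuclear members were called lower (28.7% of genes were), 0 higher, with a median of -0.55. The median of all genes was -0.08. mt-Nd5 was at 619 ± 93.0 CPM in B-like and 320 ± 23.7 in CD4 conventional T-like cells (SD, n = 6; log2 difference 1.09), and mt-Co1 at 8989 ± 665 against 6527 ± 651 (SD, n = 6; 0.60), higher in 6 of 6 libraries. Ndufa13 was at 174 ± 46.0 against 427 ± 25.3 (SD, n = 6; -1.17), Uqcrq at 98.6 ± 26.9 against 234 ± 39.2 (SD, n = 6; -1.16), and Ndufv3 at 66.0 ± 24.5 against 154 ± 17.6 (SD, n = 6; -1.24), lower in 6 of 6 libraries. The assembly factor Ndufaf3 had the largest negative value, -1.55, at 6.55 against 29.3 CPM. The called mt- members comprised all those of complexes I, III, IV and V, and the called nuclear ones 30 of 44 in complex I, 3 of 4 in II, 4 of 8 in III, 11 of 12 in IV and 15 of 17 in V. B-like cells had the lowest median depth of the lymphocytes (3546 UMIs, against 5260 in CD4 conventional T-like cells), and 63 of 73 cytosolic ribosome genes were called higher in them and 18 of 22 proliferation genes lower.

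**Figure D4:**
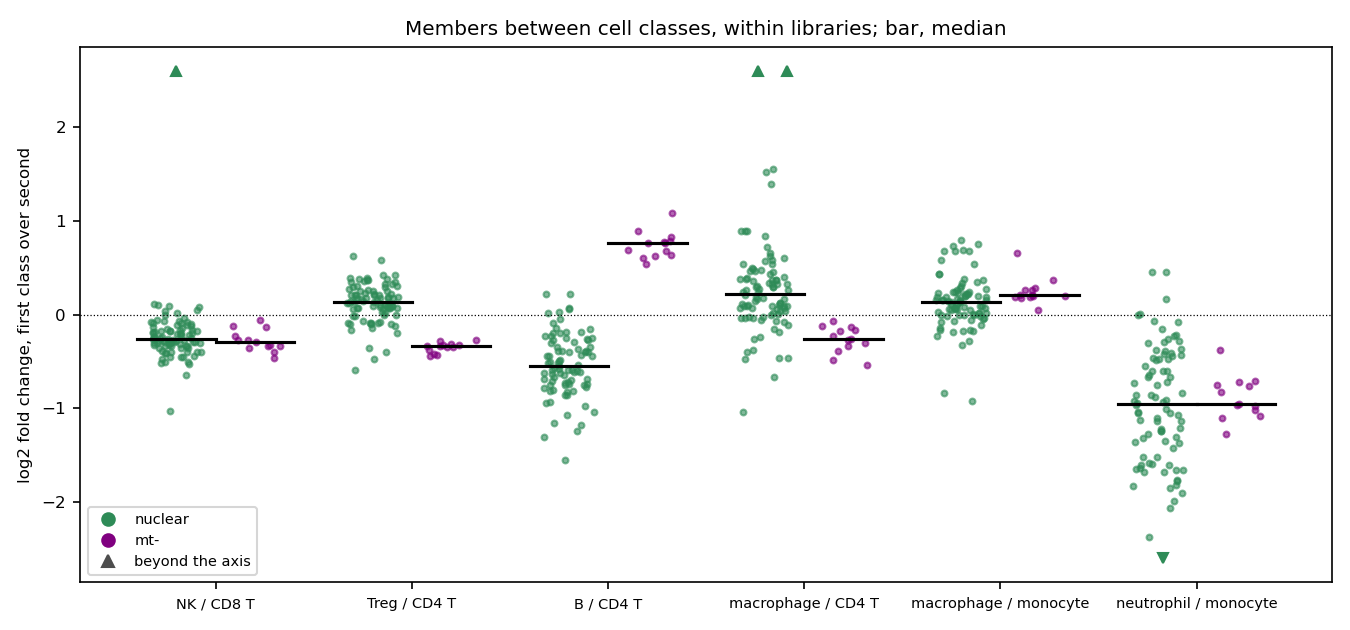
Log2 difference between classes of the same libraries (vertical axis) for every tested member, nuclear in green and mt- in purple, with bars at the medians and triangles for values beyond the axis. B-like against CD4 conventional T-like cells has the mt- median at 0.76 and the nuclear median at -0.55, and neutrophil-like against monocyte-like cells has both at -0.96.

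In the myeloid classes, neutrophil-like cells had 68 of 99 members called lower than monocyte-like cells and 0 higher, over the 3 libraries with enough of both (24.0% of 8672 genes were called lower and 21.9% higher). The median was -0.96, against -0.24 over all genes. Ndufc2 was at 43.3 ± 6.90 CPM against 306 ± 32.8 (SD, n = 3; log2 difference -2.37, edgeR adjusted p = 2.27e-08), and Uqcrc1, a core subunit of complex III, at 19.3 ± 9.38 against 98.7 ± 11.4 (SD, n = 3; -1.99). mt-Co1 was at 1432 ± 55.2 against 4724 ± 581 (SD, n = 3; -1.28). Cox8a was not called; its direction turned with the scaling, with a fitted value of 0.17 but a mean CPM of 631 against 762. The median neutrophil-like cell had 2612 UMIs and the median monocyte-like cell 7537. In the same comparison 72 of 74 cytosolic ribosome genes were lower, with a median of -1.24, and 11 of 18 dissociation stress genes were higher, with a median of 0.81. The part of depth and of these genes was not tested.

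Macrophage-like cells differed from monocyte-like cells in fewer members, with 15 of 98 higher and 2 lower (19.6% of 8257 genes were called higher and 19.1% lower). Ndufc2 was higher, at 422 ± 52.5 against 248 ± 67.1 CPM (SD, n = 6; 0.80), as were Ndufaf4 (0.75) and Ndufv3 (0.74). Beside them 21 of 22 proliferation genes were higher, with a median of 1.66, and 7 of 18 dissociation stress genes lower, and their part was not tested. The 2 lower members were Ndufa4, at 202 ± 46.1 against 374 ± 42.7 (SD, n = 6; -0.83), and Cox6b2 (-0.92). Against CD4 conventional T-like cells 33 of 90 nuclear members were higher and 6 lower, and 5 of 13 mt- members were lower (27.5% of 11242 genes were called higher and 32.3% lower). Ndufa4 again was lower, with a log2 difference of -1.04, in 6 of 6 libraries, and Ndufc2 higher (1.52). Across classes Ndufa4 ranged from 73.5 to 128 CPM in neutrophil-like and 138 to 243 in macrophage-like cells to 479 to 766 in gamma-delta T-like cells. Its relative Ndufa4l2 had 15 of its 39 UMIs in macrophage-like cells of MFP 3.

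Complex IV has subunits with alternative, tissue-restricted forms, and these were the members least evenly spread over the classes. Cox6a2, the form known from heart and skeletal muscle, lies at chr7:128205435-128206387 on the minus strand (GRCm38). It had 3872 UMIs in class sums with at least 20 cells, 64.5% of them in plasmacytoid DC-like cells. There it was at 1179 CPM in BrM 2, 1088 in BrM 3 and 1013 in MFP 3, and 292 of 326 cells (89.6%, exact 95% interval 85.7% to 92.7%, counting error only) had at least 1 UMI, at a median depth of 7362 UMIs. Cox6a1, the common form, was at 233, 262 and 278 CPM in the same libraries. Cox6a1 ranged from 145 to 374 CPM over the libraries of all classes, so it did not fall where Cox6a2 was high. The classes were gated without either gene.

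Other classes had much lower levels of Cox6a2. Microglia-like cells were at 61.1 CPM in BrM 2 and 69.4 in BrM 3, with a UMI in 247 of 604 cells (40.9%, exact 95% interval 36.9% to 44.9%) at a median depth of 12623. NK-like cells were at 7.51, 9.62 and 12.7 CPM in BrM and 9.27, 6.90 and 3.83 in MFP, with a UMI in 142 of 8487 cells (1.67%, exact 95% interval 1.41% to 1.97%) at a depth of 4806. CD8 T-like cells were at 0.0935 to 3.96 CPM, and the NK-like level was higher in 5 of 6 libraries (log2 difference 2.94, SE 0.483, edgeR adjusted p = 0.00023). A UMI was found in 30 of 5201 CD8 T-like cells (0.577%) at a depth of 7256. It was found in 5 of 1837 gamma-delta T-like cells (0.272%) at 5657 and in 1 of 627 Treg-like cells (0.159%) at 5697. CD4 conventional T-like cells had one in 2 of 3449 (0.058%) at 5260. B-like cells had 0 of 1000, which allows up to 0.3% of cells with a UMI, at a lower depth of 3546. No class is established here as lacking the gene, so no background share is set for the NK-like cells. Of the 142 NK-like cells 88 had a single UMI, the highest had 40, and 1 carried a UMI of a plasmacytoid DC marker (0.704%, against 0.216% of the other NK-like cells). Macrophage-like cells had a UMI in 282 of 6343 cells (4.45%) at a depth of 11352. Shares of cells with a UMI rise with depth, so the order of the classes is read from CPM. cDC2-like cells were at 13.5, 12.0 and 22.3 CPM in BrM and 0 and 0 in MFP 1 and MFP 3, from 8 cells with a UMI in all. Of these 8 cells 5 (62.5%) carried a plasmacytoid DC marker UMI, against 10.7% of the other cDC2-like cells. The sum of these markers was 23.8 to 51.1 CPM in BrM and 11.2 to 20.5 in MFP, also without overlap, and its part was not tested.

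**Figure D5:**
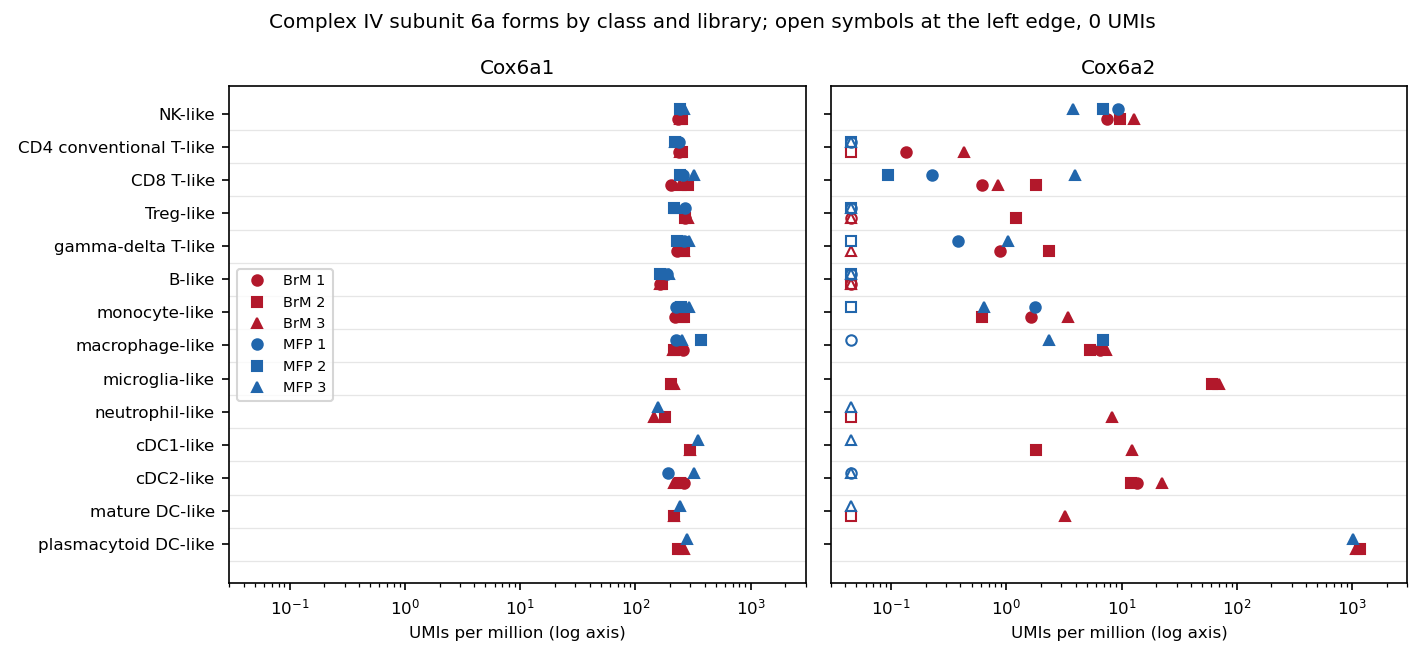
CPM (horizontal log axes) of Cox6a1 (left) and Cox6a2 (right) in every class and library with at least 20 cells, BrM in red and MFP in blue, with libraries at 0 UMIs drawn open at the left edge. Cox6a2 reaches 1013 to 1179 CPM in plasmacytoid DC-like libraries, while Cox6a1 lies between 145 and 374 CPM throughout.

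The remaining alternative forms were near the limit of detection. Cox4i2, the form of Cox4 known for induction at low oxygen in some tissues, was at 6.50, 3.03 and 4.14 CPM in BrM and 4.41, 0 and 8.10 in MFP macrophage-like cells, with a UMI in 280 of 6343 cells (4.41%). It had 2 UMIs in 8487 NK-like and 2 in 3449 CD4 conventional T-like cells, and 0 in Treg-like, B-like, gamma-delta T-like, neutrophil-like, cDC2-like and plasmacytoid DC-like cells. Cox6b2, known from testis, was highest in cDC2-like cells, at 22.5, 19.1 and 14.9 CPM in BrM and 16.4 and 24.8 in MFP, and had 0 UMIs in neutrophil-like and B-like cells. Cox7a1, a muscle form, was at 2.48 to 6.92 CPM in macrophage-like cells and at most 2.57 in CD4 conventional T-like cells (log2 difference 1.40, edgeR adjusted p = 0.0275). The macrophage-like values of BrM 1, MFP 1 and MFP 2 rest on 57, 62 and 28 cells.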

How the data were processed

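Gene counts per cell were deposited by the authors as raw UMI counts per barcode, made with Cell Ranger 4.0 on mm10, per the submitters' processing notes. Barcodes with at least 500 UMIs, 200 genes and at most 10% mt- UMIs were kept, after removal of the 7% with the highest Scrublet score in each library (scanpy 1.11.5), because the automatic threshold marked 0.0125% to 0.0367% of barcodes in 4 libraries. Pairs of libraries shared 10 to 39 barcode sequences. Classes were gated on raw UMIs of marker genes: at least 5 of Cd3d, Cd3e and Cd3g for T cells, split by Cd8a and Cd8b1 (2), Cd4 (1), Foxp3 (1) and gamma-delta genes (3), at least 3 of Ncr1, Klrb1c and Klre1 for NK, 5 of a B-cell marker set that includes Cd79a, Cd79b and Ms4a1 for B (1 further marker is not reported here), 11 of the C1q genes for macrophages, and 5 of Siglech, Ccr9 and Klk1 for plasmacytoid DC. Of Treg-like cells 65.1% lay at the gate or 1 UMI above. The thresholds were set after the data were seen. Counts were summed per library and class (at least 20 cells) and tested with edgeR 4.0.16 (R 4.3.3; TMM, filterByExpr, quasi-likelihood, Benjamini-Hochberg over all genes), with site as the term, or class with the library as a block. The fits were tested on simulated data. The NRF1-type motif was shortened by a base after a longer form had been searched. DESeq2 1.42.0 was an alternative, beside other filters, scalings, gates, caps and left-out libraries.

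Named members were taken from those called between sites, the 2 most abundant nuclear members of each complex, all mt- members, isoform sets, the 5 with the largest separate site difference and the 5 with the largest called class difference in each comparison, and those nearest the 100 UMI threshold. Not every gene that met these rules is described above. Ndufaf2, which had the largest separate difference in Treg-like cells and was not called, is among those left out. Genes of other lists were named where called, at most 5 for each list and class. The members and all lists were chosen with earlier results of these data known.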

Additional observations from a re-analysis of the deposited data

Results flagged for a closer look

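Ndufb8, an accessory subunit of complex I, moved in opposite directions in a pair of classes. In Treg-like cells it was at 231, 271 and 328 CPM in BrM and 200, 183 and 190 in MFP, a log2 fold change of 0.61 (edgeR adjusted p = 0.0571). In monocyte-like cells it was at 179, 208 and 207 against 222, 273 and 245, a log2 fold change of -0.26 (edgeR adjusted p = 0.515). Every BrM library was above every MFP library in the first class and below in the second, and neither value passed the threshold. The difference between the classes was not tested.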

How the results depend on the processing

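Deviations of same-numbered BrM and MFP libraries had correlations of -0.07, -0.02 and 0.07 in Treg-like and 0.42, -0.23 and 0.19 in NK-like cells. They were 0.06, -0.13 and 0.18 in CD4 conventional T-like and 0.27, -0.34 and 0.46 in CD8 T-like cells. The differently numbered pair BrM 1 and MFP 2 had 0.47 in CD8 T-like cells. Number 2 joined libraries of different kinds, and numbers 1 and 3 joined libraries of the same kind. The values therefore cannot decide whether the replicate numbers pair the samples. With a replicate block 5 members were called in Treg-like cells (5.1% of all genes were) and 1 in cDC2-like cells (3.07% of genes). Between classes, where the library pairs the sums, leaving the block out reduced the calls from 74 to 39 for NK-like against CD8 T-like and from 39 to 8 for Treg-like against CD4 conventional T-like cells. Treg-like calls (14) became 22 with no filter on low counts, 2 with a term for library kind, 0 within libraries of lower and 26 within those of higher UMI total, 0 without cycling cells, 0 with stricter gates (added after the data were seen), and 0 to 39 with single libraries left out. In CD4 conventional T-like cells (0) the counts were 8 with no filter (3.72% of genes) and 3 with DESeq2 (1.21%). With single libraries left out they were 0 to 39 (0.0% to 18.4%). NK-like cells (0) gave 0 to 8 with single libraries left out (0.0% to 6.86% of genes). CD8 T-like cells (0) gave 13 within libraries of lower and 1 within those of higher total, and their nuclear to mitochondrial log2 ratio, 0.11 higher in BrM, was -0.27 within libraries of lower total. Gamma-delta T-like cells (0) gave 4 with the kind term, and 10 and 4 within the kinds. B-like cells (0) gave 1 with no filter (0.676% of genes) and 0 to 11 with single libraries left out (0.0% to 10.1%). Monocyte-like cells (0) gave 0 with the kind term (2.8% of genes). Macrophage-like cells (1) gave 0 with DESeq2, which moved the median of all genes to -0.34, 3 with the kind term, 0 and 33 within the kinds, 2 without cycling cells, 2 with stricter gates and 0 to 3 with single libraries left out. cDC2-like cells (0) gave 1 with no filter, 1 with the kind term, 7 within libraries of higher total and 0 to 2 with single libraries left out, and could not be fitted within those of lower total. Macrophage-like against monocyte-like calls (17) ranged from 11 (without BrM 3) to 20 with single libraries left out. Counts near or below the share over all genes are not read as results about the members. For the changed settings between classes the share over all genes is not given, and those counts are not read so either. The cause of these changes was not tested. Among genes called between sites or named for the size of a class difference, no value changed sign under these settings. These genes were picked from fits to the same libraries, so a kept sign is no separate support. In Treg-like cells 142 of their values fell short of the threshold and 123 did not. Treg-like sums of 45 to 203 cells a library limit precision there.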
